A study of Homo sapiens with 4 samples.

Results

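The arrays of HuCCT1 cells carrying siGRB2 or miR-376c were compared jointly with the arrays of both negative controls, siControl and miControl. All 4 arrays of the series entered, 2 treated and 2 control. A probe entered when its signal was well above background on all 4 arrays, which held for 21239 of 34127 probes (62.2%). The genes described are those for which both treated values lay on the same side of both control values. Of the 21239 probes, 13.6% (2884) were lower and 21.3% (4520) higher on both treated arrays in this sense, so lying on one side was common. Together these were 34.9% of the probes. For 2 against 2 values in random order the expected share on either side is 0.333, so the total is near that share. When each treated array had to differ from each control at least 1.5-fold, 68 probes were lower (0.32%) and 43 higher (0.202%). At 2-fold, 5 were lower (0.0235%) and 5 higher (0.0235%).

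HuCCT1 is a human intrahepatic cholangiocarcinoma line, cultured with 10% serum and 5% CO2. The cells of siGRB2 received an siRNA against GRB2, which the methods name siGRB2-2, and those of siControl a nontargeting siRNA. The cells of miR-376c received a precursor of this microRNA, and those of miControl a negative control precursor. Each was transfected at 30 nM with Lipofectamine. In all 4 conditions the medium was changed after 24 h to one with 0.1% serum and 5 ng/ml EGF, and the cells stayed in it for 24 h. There was no array without EGF, so the values are differences between EGF-treated cultures. Each condition had 1 array from 1 culture. The treated arrays carried different agents and are not replicates of a condition, and neither are the controls. An exact permutation of 2 against 2 values cannot give a two-sided p below 0.333, so no p-value is given. The error set beside a difference is the spread between the arrays of a kind and the scanner software's own error of a signal. Neither contains the spread between cultures given the same agent.

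GRB2 is an adaptor protein. It binds the phosphorylated tail of the EGF receptor and brings the exchange factor SOS to RAS, which starts the RAF, MEK and ERK kinase chain. Active ERK changes the output of transcription factors such as those of the ETS and AP-1 families, and among the genes these control are secreted proteases, cytokines and chemokines that act in cell movement and inflammation. A microRNA pairs through its seed, the bases near its 5′ end, with sites in messenger RNAs and lowers their amount or their translation. An siRNA guided by full pairing cuts its target, and its seed can also act on other messages as a microRNA does. Genes that differ in the same direction with both agents are therefore of interest to a study that asks what lies downstream of GRB2.

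Both mature strands of miR-376c are shown, of which only the 3p strand was mimicked by the agent of 1 of the treated arrays. They lie on human chromosome 14 in the gene MIR376C, on the plus strand, at chr14:101039732-101039752 for the 3p strand and chr14:101039694-101039714 for the 5p strand (RefSeq, GRCh38.p14). The seed, bases 2 to 8 from the 5′ end, is in capitals.
hsa-miR-376c-3p: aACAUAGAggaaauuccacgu
hsa-miR-376c-5p: gGUGGAUAuuccuucuauguu

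GRB2 was lower with each treatment than with its own negative control, but the treated values did not lie below both controls. Its level, the log2 signal relative to the array's 75th percentile, was -0.65 with siGRB2, 0.07 with miR-376c, -0.10 with siControl and 0.62 with miControl, from 1 probe with 1 spot. The value was lowest with siGRB2, while the miR-376c value lay between the controls. Against its own control the log2 difference was -0.55 for siGRB2 (from siControl) and -0.55 for miR-376c (from miControl), each from 1 pair of arrays. The mean of the treated arrays was lower than that of the controls by a log2 difference of -0.55, which was smaller than the spread of 0.72 between the treated arrays and of 0.72 between the controls. Against miControl alone the difference was -0.91, and against siControl alone it was -0.19.

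The siControl array stood apart from the rest. The SD across probes of the log2 difference between a pair of arrays was 0.54 to 0.58 for the 3 pairs with siControl and 0.31 to 0.36 for the other 3 pairs, and probes at least 2-fold apart numbered 1247 to 1749 and 231 to 283. The closest pair was siGRB2 with miControl, a treated and a control array, with an SD of 0.31 and 231 such probes. Between the treated arrays these values were 0.32 and 252. The median spread over all probes was 0.37 between the controls and 0.18 between the treated arrays. Values without siControl are given below for the 12 named genes in each direction that lead. These genes were chosen for their separation from both controls. Their difference from miControl alone therefore keeps its sign and is at least as large as the gap, so it is no separate support. All arrays were on 1 slide and read in 1 scan. The 10 cholangiocyte markers examined, KRT7, KRT19 and EPCAM among them, were detected on all 4 arrays. Of the markers of other cells, 2 of 7 for hepatocytes, 2 of 6 for fibroblasts, 2 of 4 with a probe for leukocytes and 2 of 4 for endothelial cells were detected on all 4, while ALB, COL1A2, COL3A1 and KDR were detected on no array. The detected ones included SERPINA1, COL1A1, CD68 and VWF, and SERPINA1 was at 1.80 to 2.27.

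Most of the probes on one side were separated by little. The gap, the difference between the nearest treated and the nearest control value, had a median size of 0.11 on the log2 scale for the 2884 lower probes and 0.12 for the 4520 higher ones. It was under 0.1 for 1367 (47.4%) of the lower and 1967 (43.5%) of the higher probes. It exceeded the scanner software's error of the gap for 711 (24.7%) and 1179 (26.1%). At 1.5-fold the gap exceeded 2 times this error for 67 of the 68 lower and 42 of the 43 higher probes, and the mean difference exceeded the spread of both kinds of array for 68 and 42. Both counts follow largely from the limit, which is 0.585 on the log2 scale, where this error was 0.20 to 0.39. The mean difference also contains the gap, so neither count is separate support for the probes. The higher probes outnumbered the lower ones among small gaps, and the lower ones outnumbered the higher ones at 1.5-fold.

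**Figure D1:**
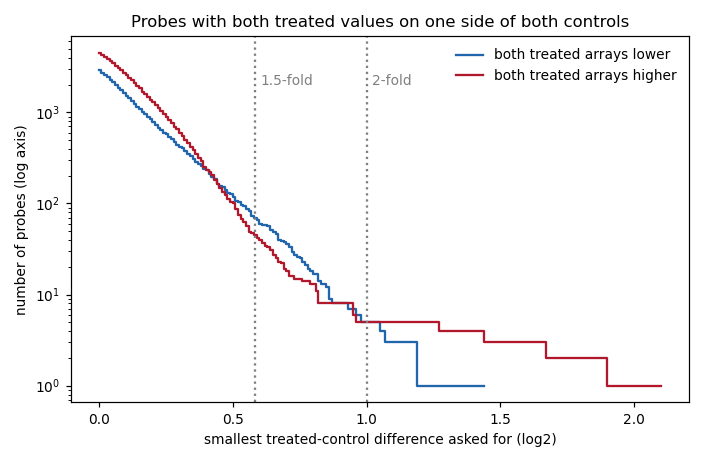
Number of probes (log axis) whose treated values both lay below (blue) or above (red) both control values, by the smallest difference on the log2 scale asked for between any treated and any control array. Of 21239 probes, 2884 lower and 4520 higher ones remained at 0, 68 and 43 at 1.5-fold, and 5 and 5 at 2-fold.

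The balance between the directions depended on the scaling. At 1.5-fold the lower probes made up 61.3% of those separated after the shift to the 75th percentile, 75.8% (97 lower, 31 higher) after quantile normalization, 72.1% (88 and 34) after a shift to the median and 75.7% (28 and 9) after normexp background correction. All of the 68 and 43 probes that entered under these settings stayed on their side, but fewer still passed 1.5-fold. Of the 68 lower and 43 higher probes, 63 and 25 did after quantile normalization and 58 and 22 after the median shift, and with normexp 27 of 66 and 9 of 38 that entered did. The values close to the limit show that it falls within a continuum. At 1.5-fold, IL17RD lay just inside with a gap of -0.587 and EPHA1-AS1 just outside with -0.584, and of the higher named probes PDIA5 lay inside with 0.588 and CCL26 outside with 0.578. At 2-fold, MMP9 (-1.04) and KRT42P (1.27) were the last named probes inside, and XDH (-0.98) and TRIM22 (0.95) the first outside.

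The 68 lower probes included 55 with a gene name, for 55 genes, of which 44 were protein-coding. The 43 higher probes included 33 with a name, for 32 genes, of which 29 of 31 with a recorded type were protein-coding, while 95.1% of the measured genes with a recorded type were. Probes at 1.5-fold were mostly dim. Their level averaged over the arrays lay above the 75th percentile for 9 lower and 2 higher probes, and for 34.9% of all detected probes. The median level was -3.14 for the lower, -3.31 for the higher and -1.25 for all detected probes. The part of dim signal in their separation was not tested. The probes with the largest gap in each direction had no gene name. The lower one was at -6.05 with siGRB2, -5.93 with miR-376c, -4.49 with siControl and -4.29 with miControl, and the higher one was at -3.69, -3.80, -5.89 and -6.31.

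Several of the lower genes act in inflammatory signalling. IL1B encodes interleukin-1 beta, a secreted cytokine that activates NF-kB through its receptor. Its level was -1.21 with siGRB2, -1.70 with miR-376c, -0.04 with siControl and -0.29 with miControl, and the SD among its 10 spots on an array was 0.070 to 0.075. Both treated values lay below both controls by at least 0.92, and the mean difference was -1.29, a 2.45-fold lower signal, or -1.17 against miControl alone. IL1A encodes interleukin-1 alpha, which acts through the same receptor. It was at -2.85 with siGRB2, -2.82 with miR-376c, -2.01 with siControl and -1.84 with miControl. Its treated values were nearly equal and its gap was -0.81. IL1A and IL1B lie beside each other on chromosome 2 with no protein-coding gene between them.

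The chemokines CXCL1 and CXCL5, which attract neutrophils through the receptor CXCR2, were lower on both treated arrays as well. CXCL1 was at -0.25 with siGRB2, -0.43 with miR-376c, 0.64 with siControl and 0.61 with miControl, a gap of -0.85 where each kind of array was tight, and a mean difference of -0.94 without siControl. CXCL5 was at 1.48, 1.84, 2.43 and 2.50 in the same order, with a gap of -0.59. The genes lie on chromosome 4 with 2 protein-coding genes between them. A second probe of CXCL1 did not separate, with -2.78 and -2.90 on the treated arrays and -3.28 and -2.25 on the controls, so the lower value of CXCL1 rested on 1 of its 2 detected probes. CCL3, a chemokine for monocytes and other leukocytes, was at -4.26 with siGRB2, -4.50 with miR-376c, -3.39 with siControl and -2.32 with miControl. Its controls were apart by 1.07, more than its gap of -0.87, and the mean difference of -1.52 became -2.06 without siControl.

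Not all cytokine genes went this way. CCL2, another monocyte chemokine, was higher on the treated arrays, with -3.51 with siGRB2 and -4.02 with miR-376c against -4.66 with siControl and -4.75 with miControl. CXCL8 overlapped, at -5.08, -5.02, -4.52 and -5.10 in the same order. IL6 also overlapped, at -1.07, -0.38, -1.10 and -0.93. CXCL1, CXCL2 and CXCL3 encode closely related chemokines, and CXCL2 (-2.15, -1.63, -2.03 and -1.69) and CXCL3 (-4.89, -3.87, -4.39 and -4.10) did not separate. The values for CCL2, CXCL5, CXCL8, IL6, CXCL2 and CXCL3 were chosen for the text after they were seen.

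As shown in the plot by array, MMP9 was among the lower genes. It encodes a secreted gelatinase that degrades basement membrane collagen. Its level was -3.36 with siGRB2, -3.49 with miR-376c, -2.05 with siControl and -2.32 with miControl, with an SD among 10 spots of 0.042 to 0.075. All treated and control values differed at least 2-fold, with a gap of -1.04 and a mean difference of -1.24. Without siControl the difference was -1.11.

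Another 3 named genes were at least 2-fold apart. GMFG, an actin regulator that acts on branched filaments, was at 0.37 with siGRB2, -0.06 with miR-376c, 1.56 with siControl and 1.60 with miControl, a gap of -1.19. SCG5, a chaperone of a prohormone convertase in secretory granules, was at -3.83, -3.68, -2.61 and -2.47, a gap of -1.07. The probe of MSANTD3-TMEFF1, a readthrough transcript of neighbouring genes, was at -4.64, -4.63, -3.44 and -2.99, a gap of -1.18. The differences against miControl alone were -1.44, -1.28 and -1.64.

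Next in order were genes of metabolism, proteolysis and the cell surface. XDH, the enzyme that forms uric acid in purine breakdown, was at -2.21 with siGRB2, -2.19 with miR-376c, -1.21 with siControl and -0.91 with miControl. CAPN5, a calcium-dependent protease, was at -1.49, -1.61, -0.54 and -0.54, where the controls were equal at this rounding. LAMA4, a laminin chain of basement membranes, was at -0.004, -0.074, 1.11 and 0.84. These 3 genes differed from both controls by at least 0.98, 0.95 and 0.84 on the log2 scale. Of the 4 detected probes of LAMA4, however, the other 3 had mean differences of -0.45, -0.14 and 0.32, and they did not share the size of the first. GPC3, a glypican of the cell surface, was at -5.93, -5.97, -4.94 and -5.08, and its second probe at -2.33, -2.24, -2.16 and -2.08 showed a mean difference of -0.16. JAKMIP3 was at -4.50, -4.81, -3.65 and -3.50. Against miControl alone the mean differences were -1.29 for XDH, -1.01 for CAPN5, -0.88 for LAMA4, -0.87 for GPC3 and -1.15 for JAKMIP3.

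**Figure D2:**
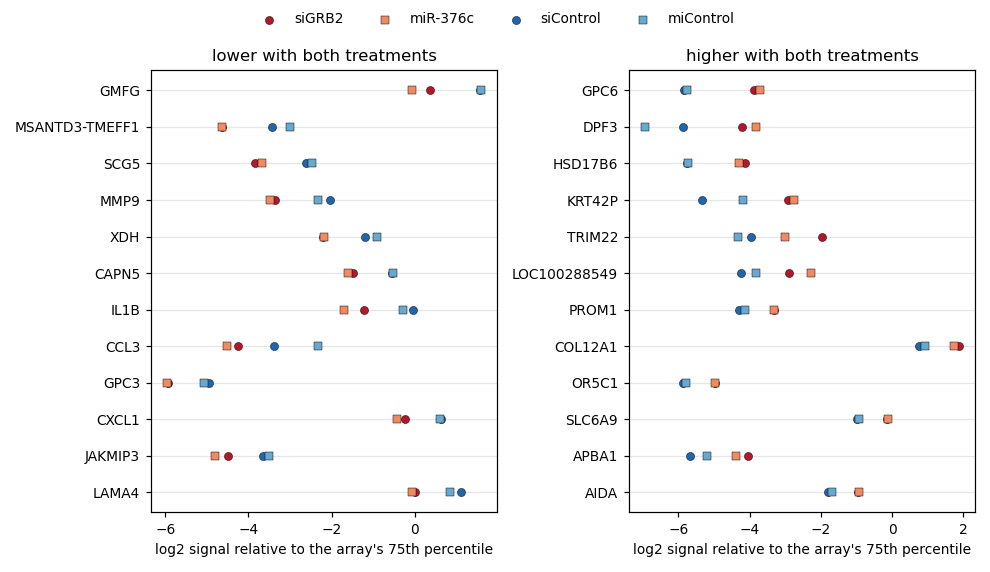
Level of the 12 named probes lower (left) and the 12 higher (right) with the largest gap, as log2 signal relative to the array's 75th percentile, with 1 point for each array (red and orange, treated; blue, controls). In each row both treated points lie on one side of both control points, by at least 0.84 on the left and 0.73 on the right, and control points lie over 1 apart for CCL3, DPF3 and KRT42P.

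The remaining lower probes at 1.5-fold had gaps from -0.82 to -0.59, and the genes named from them here were chosen after their values were seen. VNN1 and VNN2 encode pantetheinases and are neighbours on chromosome 6 with no protein-coding gene between them. VNN1 was at -0.80 with siGRB2, -0.49 with miR-376c, 0.34 with siControl and 1.15 with miControl, and VNN2 was at -1.88, -1.91, -0.88 and -1.18. Transcription regulators were also present. MXD1, a repressor that pairs with MAX, was at -2.87, -2.87, -1.92 and -2.11, and its second probe was also lower on both treated arrays. PRDM1, a repressor known from plasma cell differentiation, was at -2.52, -2.79, -1.80 and -1.72, and its second probe overlapped. ELL2, an RNA polymerase elongation factor, was at 0.32, 0.17, 0.95 and 1.27.

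Signalling genes among them were JAK3, a cytokine receptor kinase, at -3.53 with siGRB2, -3.63 with miR-376c, -2.89 with siControl and -2.65 with miControl, and IL17RD, a membrane brake on growth factor signalling to ERK, at -1.15, -1.23, -0.49 and -0.57. A second probe of JAK3 did not separate and had a mean difference of 0.22. CARD6, a caspase recruitment domain protein, was at -0.87, -0.56, 0.22 and 0.05, and its second probe was lower on both treated arrays too, with a mean difference of -0.59. HHIP, which binds hedgehog ligands, was at -5.75, -6.04, -4.89 and -4.99. FBLN5, an elastic fibre protein, was at -4.25, -4.23, -3.57 and -3.14. The long noncoding RNA MANCR was at -0.55, -0.79, 0.94 and 0.20.

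With the scaling and detection filter used here, the higher genes had larger gaps at the top of the list than the lower ones. This depended on the setting. After normexp background correction 1 lower and 0 higher probes remained at 2-fold. Among probes above the median of all probes on each array, 2 and 0 remained, and without a detection filter there were 42 and 86. The control values of GPC6, DPF3 and HSD17B6 were dim, at -5.73 or lower, and the part of dim signal in their gaps was not tested. GPC6, a glypican like GPC3, was at -3.87 with siGRB2, -3.72 with miR-376c, -5.84 with siControl and -5.77 with miControl. Its mean difference was 2.01, a 4.03-fold higher signal, and its gap was 1.90. A second GPC6 probe overlapped, at -1.30, -1.24, -0.57 and -1.41, so the probes of this gene disagreed. DPF3, a subunit of the BAF chromatin remodelling complex, was at -4.21, -3.82, -5.87 and -6.95, and its second probe was higher on both treated arrays as well, with a mean difference of 0.78 beside 2.40 for the first. HSD17B6, a steroid and retinol dehydrogenase, was at -4.14, -4.29, -5.77 and -5.73, with tight values on both sides. The pseudogene probe KRT42P was at -2.92, -2.75, -5.35 and -4.19, and its controls were apart by 1.16. A pseudogene's probe can share sequence with its parent family, so its source is uncertain. Against miControl alone the mean differences were 1.98 for GPC6, 2.93 for DPF3, 1.51 for HSD17B6 and 1.36 for KRT42P.

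TRIM22, an interferon-inducible ubiquitin ligase, was at -1.96 with siGRB2, -3.00 with miR-376c, -3.95 with siControl and -4.32 with miControl. The treated values were apart by 1.05, more than the gap of 0.95, so the size of its difference was uneven between the treatments. The unnamed locus LOC100288549 was at -2.88, -2.28, -4.24 and -3.82. PROM1, the membrane glycoprotein also called CD133, was at -3.32, -3.33, -4.29 and -4.14. COL12A1, a collagen associated with fibrils, was at 1.89, 1.74, 0.75 and 0.93, and its second probe was also higher on both treated arrays with a mean difference of 0.52. SLC6A9, a glycine transporter, was at -0.14, -0.10, -0.99 and -0.94. The spread within each kind of array was 0.05 or less for SLC6A9, and its gap was 0.80.

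The other 3 of the 12 were OR5C1, an olfactory receptor, at -4.98 with siGRB2, -4.96 with miR-376c, -5.87 with siControl and -5.78 with miControl, APBA1, a neuronal adaptor, at -4.04, -4.40, -5.68 and -5.18, and AIDA at -0.95, -0.93, -1.80 and -1.67. Of these, AIDA had a second probe on the same side (mean difference 0.51), and a second probe of APBA1 overlapped (-0.05). Against miControl alone the mean differences of the 8 genes from TRIM22 on were 1.84 for TRIM22, 1.24 for LOC100288549, 0.82 for PROM1, 0.89 for COL12A1, 0.81 for OR5C1, 0.82 for SLC6A9, 0.97 for APBA1 and 0.74 for AIDA.

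Several further higher genes act in growth factor or stress signalling, and these too were chosen after their values were seen. NRG1, a ligand of ERBB3 and ERBB4, was at -1.91 with siGRB2, -1.76 with miR-376c, -2.52 with siControl and -2.57 with miControl, and both of its probes were higher on the treated arrays. STAT3, a transcription factor downstream of cytokine receptors, was at -1.03, -1.13, -1.74 and -1.81, and its second probe had a larger mean difference (0.81) than the first (0.69). NPPB, the precursor of B-type natriuretic peptide, was at least 1.5-fold apart on both of its probes, with mean differences of 1.26 and 1.46, although its controls were apart by 0.95 and 1.47 on the log2 scale.

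CLU, the extracellular chaperone clusterin, was at -1.74 with siGRB2, -1.19 with miR-376c, -2.87 with siControl and -2.44 with miControl. NUPR1, a chromatin protein induced by stress, was at -3.02, -3.13, -3.81 and -4.13. GBP1, an interferon-induced GTPase, was at -1.26, -1.21, -1.92 and -1.95. PDIA5, a disulphide isomerase of the endoplasmic reticulum, was at -1.76, -1.77, -2.75 and -2.36. In each of these 4 genes the gap was between 0.59 and 0.70.

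**Figure D3:**
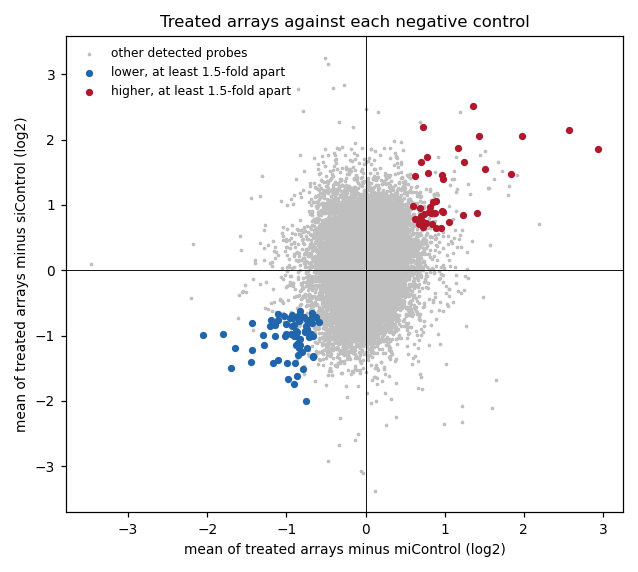
Mean of the treated arrays minus miControl (x axis) and minus siControl (y axis), both on the log2 scale, with 1 point for each of 21239 probes. The 68 lower (blue) and 43 higher (red) probes at least 1.5-fold apart occupy the lower left and upper right corners, and the grey probes spread further along the siControl axis than along the miControl axis.

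Other detected probes of the same genes, leaving out those that themselves passed 1.5-fold, were read on the same arrays. Of the 55 lower genes, 13 had other detected probes, 15 in number. Of these 15 probes, 13 had a negative mean difference, 8 were lower on both treated arrays and 0 were on the opposite side. Their median difference was -0.30, beside -0.90 for the leading probes. Of the 32 higher genes, 13 had 14 such probes, of which 8 had a positive mean difference, 6 were higher on both treated arrays and 1, of ZSCAN2, was on the opposite side (-0.78). Their median was 0.13, beside 0.88. Over all genes, 31.6% of the other probes of a gene with a probe on one side were on the same side, 8.46% were on the opposite side and 68.5% had a mean difference in that direction. Of the remaining genes, 42 lower and 18 higher ones had 1 detected probe, and NPPB had both of its probes past 1.5-fold.

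Promoters of the genes at 1.5-fold were searched for letters known as binding motifs of AP-1, NF-kB and ETS factors. Windows of 5 lower genes are shown as a selection, among them IL1A, CXCL1 and CXCL5, which AP-1 or NF-kB is known to control. Matches in other lower genes, such as CLIC2, DOCK4 and EGOT, and the ETS matches, MFAP3 and EME1 of the higher genes among them, are not printed. The search covered 250 bases before to 50 bases after each gene's start on both strands (RefSeq, GRCh38.p14). TGANTCA (AP-1) occurred in 7.76%, the NF-kB motif (GGGA, any base, TT, any base, CC) in 1.41% and the ETS motif (CCGG followed by AAGT) in 4.44% of the 27305 promoters. In the promoters of measured genes the shares were 4.98%, 1.60% and 8.38%. AP-1 letters were found for 7 lower and 0 higher genes, NF-kB letters for 4 and 0, and ETS letters for 1 and 2. A promoter was matched for 37 of the 55 lower and 20 of the 32 higher genes, which is too few for a comparison of shares, and such a comparison is void here. The windows below give the strand of the gene, with the motif in capitals.
IL1A, chr2:112784488-112784516, minus strand: gcgaagaagacTGACTCAggcttaagctg
IL1A, chr2:112784444-112784472, minus strand: gtcatttcattggcgttTGAGTCAgcaaa
CARD6, chr5:40841124-40841152, plus strand: gaccctgggtcTGAGTCAtggtgagaatt
CXCL1, chr4:73869303-73869331, plus strand: tctggaactccGGGAATTTCCctggcccg
CXCL5, chr4:73998751-73998779, minus strand: ccatgagttcaGGGAATTTCCccagcatc
JAK3, chr19:17847995-17848023, minus strand: aggagccgagtGGGACTTTCCtctcgctg

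The neighbours CXCL1 and CXCL5 carry the same letters at the motif. A match describes the sequence, not binding, and binding was not measured.

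Gene lists were then read with the mean of a gene's detected probes. Of the 13605 genes measured, 13.6% were lower and 20.1% higher on both treated arrays, and the median mean difference was 0.04. At 1.5-fold 43 genes (0.316%) were lower and 25 (0.184%) higher, and at 2-fold 4 (0.0294%) and 2 (0.0147%). A list's counts are set beside these shares as a description.

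Of the genes of the chain from the ERBB receptors over GRB2 and RAS to ERK, 5 of 27 measured were lower, 3 higher and 19 on neither side, with a median difference of -0.04. LRIG1, a receptor brake, was at -1.90 with siGRB2, -1.79 with miR-376c, -1.32 with siControl and -1.38 with miControl, and ERRFI1, another inhibitor of EGFR that its activity induces, was at 3.39, 3.44, 4.06 and 3.69. MAP2K1, the kinase that activates ERK, was higher at 2.59, 2.47, 1.89 and 2.14, and ADAM17, the protease that sheds ERBB ligands, was at -0.68, -0.77, -0.96 and -1.39. The receptors EGFR (-0.84, -0.78, -0.92 and -0.41) and ERBB3 (0.13, 0.08, -0.36 and 0.32) did not separate. Without siControl 15 of the 27 genes were lower than miControl and 5 higher, where 31.7% and 34.4% of all genes were.

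Genes that ERK induces, and the brakes it raises against itself, were on both sides or neither. Of 23 measured, 3 were lower, 4 higher and 16 on neither side, with a median of 0.10. CCND1, which encodes cyclin D1, was at 0.92 with siGRB2, 0.89 with miR-376c, -0.14 with siControl and 0.52 with miControl, and SPRED2, an inhibitor of the RAS pathway, was at -2.01, -2.24, -2.97 and -2.40. JUN, a component of AP-1, was lower at 0.51, 0.44, 0.75 and 0.60, with a gap of -0.09, and so was IER2 at 4.57, 4.37, 5.27 and 4.66. The phosphatase DUSP4 (1.63, 1.55, 1.49 and 1.69), EGR1 (-1.53, -1.05, -1.03 and -1.37) and MYC (3.72, 4.07, 4.16 and 4.06) overlapped. Without siControl 11 were lower and 4 higher.

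The IL-1 and NF-kB list had 6 of 25 measured genes lower and 2 higher, with a median of -0.13, and its 2 genes at 1.5-fold were IL1B and IL1A. PTGS2, the inducible cyclooxygenase, was at -5.14 with siGRB2, -5.16 with miR-376c, -4.72 with siControl and -4.47 with miControl. NFKB1, which encodes a subunit of NF-kB, was higher at 1.82, 2.14, 1.55 and 1.58. The other lower members were CXCL1, NFKBIA and IRAK2 and the other higher one was ICAM1, while 17 were on neither side. Without siControl 11 were lower and 6 higher.

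Of the genes of pericellular proteolysis and adhesion, 5 of 20 measured were lower, 0 higher and 15 on neither side, with a median of -0.12. MMP9 was the only member at 1.5-fold. CD44, the hyaluronan receptor, was at 5.48 with siGRB2, 5.50 with miR-376c, 6.09 with siControl and 5.78 with miControl, and ITGB1, the beta-1 integrin chain, was at 1.19, 1.19, 1.32 and 1.34. Their gaps of -0.28 and -0.14 were small. MMP1 (-0.76, 0.04, 1.14 and -0.33), MMP7 (2.35, 3.52, 3.92 and 2.89) and PLAU (4.03, 4.13, 4.06 and 4.75) overlapped. Without siControl 11 were lower and 1 higher.

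Among epithelial and mesenchymal genes 4 of 18 measured were lower, 1 higher and 13 on neither side, with a median of -0.11. ZEB1, a repressor of epithelial genes, was lower on both of its probes, with a gene mean of -4.49 with siGRB2, -4.63 with miR-376c, -3.92 with siControl and -3.69 with miControl. VIM, the mesenchymal intermediate filament, was at 5.42, 5.45, 6.24 and 5.86, and S100A4, a calcium-binding protein linked to motility, was at -2.09, -2.11, -1.33 and -1.81. CLDN1, a tight junction protein, was higher at 1.47, 1.42, 1.06 and 1.28, and the cadherin gene CDH1 (3.38, 3.51, 4.10 and 3.32) overlapped. Without siControl 7 were lower and 5 higher.

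Of the genes of the cell cycle and DNA replication, 8 of 25 measured were higher, 2 lower and 15 on neither side. Their median was 0.05, close to that of all genes. CCNA2, which encodes cyclin A2, was at 0.89 with siGRB2, 1.16 with miR-376c, 0.36 with siControl and 0.66 with miControl. CDC20 (gap 0.23), RRM2 (0.21) and MCM4 (0.15) were the next, and after a shift to the median 4 members were higher and 0 lower, where 16.4% of all genes were higher and 14.8% lower. Cholesterol and fatty acid synthesis had 6 of 23 higher and 3 lower, with a median of 0.12. ACLY, which supplies cytosolic acetyl-CoA, was at 2.28, 2.22, 1.79 and 1.65, and FASN had a gap of 0.13. INSIG1 (-0.10) was lower. After a shift to the median 2 members of this list were higher and 1 lower. Without siControl 16 members of each of these lists were higher, with 2 cell cycle and 4 lipid genes lower.

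The other lists held no member at 1.5-fold. Interferon response genes had 2 of 22 lower and 4 higher (median -0.01), with OASL, an antiviral gene of the oligoadenylate synthetase family, at -3.08 with siGRB2, -3.05 with miR-376c, -3.46 with siControl and -4.10 with miControl. RSAD2 (gap 0.22) and IRF9 (0.15) were also higher and CMPK2 (-0.09) was lower. Without siControl 6 interferon genes were lower and 9 higher. ATF4 targets and unfolded protein response genes had 1 of 17 lower and 4 higher (median 0.01), with CHAC1 (0.26), PHGDH (0.26), VLDLR (0.16) and DDIT3 (0.12) on the higher side. Without siControl 14 of these 17 were higher and 2 lower, where 34.4% and 31.7% of all genes were. Glycolysis and hypoxia genes had 2 of 17 lower and 2 higher (median -0.05), with NDRG1 (-0.11), SLC2A1 (-0.02), PGK1 (0.07) and LDHA (0.02), and without siControl 2 were lower and 8 higher. Squamous keratin and cornified envelope genes had 3 of 13 lower and 1 higher (median 0.08), with S100A2 (-0.14), SPRR2A (-0.06), KRT15 (-0.03) and SPRR3 (0.20), and without siControl 7 were lower and 1 higher.

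Of the p53 targets and apoptosis regulators, 0 of 17 were lower and 1 higher, MDM2, with a gap of 0.06 and a list median of 0.00. CDKN1A, TP53INP1 and BCL2L1 had mean differences of 0.52, -0.58 and 0.52, but their treated and control values overlapped. For CDKN1A and BCL2L1 siControl was the lowest array, and without it the differences were -0.23 and -0.25, with 4 members of the list lower and 3 higher. Of 13 genes for microRNA processing and silencing, 5 were lower, 4 higher and 4 on neither side, with a median of -0.06. The separated genes, 38.5% lower and 30.8% higher, together took a larger share than in any other of the 13 lists, with gaps of at most 0.28 in size. The lower DROSHA, the nuclease that cuts primary microRNAs, had a gap of -0.08, and the higher silencing scaffolds TNRC6C and TNRC6A and the DICER partner TARBP2 had gaps of 0.28, 0.16 and 0.07. Without siControl the list had 6 lower and 6 higher genes.

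Of the probes that the requirement of detection on all 4 arrays left out, 9209 were detected on no array, 3525 on 1 to 3 arrays in a pattern that did not separate the kinds, and 1 had no kept spot. A further 38 of the 34127 probes were detected on both treated and neither control array, 26 of them named. Their fold is a bound against the lowest signal of a detected probe, and it was at least 2-fold for 19, with a median of 2.01-fold. MAS1, a G protein-coupled receptor, was at least 6.88-fold higher, with levels of -3.76 with siGRB2, -3.98 with miR-376c, -8.44 with siControl and -9.12 with miControl. The bound was 6.46-fold for COLEC10, a collectin, and 5.47-fold for KREMEN1, a receptor of the WNT inhibitor DKK1. In COLEC10 the treated values, -2.46 and -5.46, differed more than in the other 2 genes.

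The reverse pattern, detection on both control arrays and neither treated array, was found for 115 of the 34127 probes, 72 of them named. The bound was at least 2-fold for 8, with a median of 1.32-fold. For some, such as PECAM1 (0.993-fold), the bound was below 1, so the count does not show 115 lower probes. The bound was 4.00-fold for the noncoding RNA LINC01590 and 3.89-fold for NCR3, an activating receptor of natural killer cells. It was 2.47-fold for TNXB, a matrix protein. In NCR3 and TNXB the siControl level was -2.57 and -3.35 and the miControl level -6.35 and -6.87, so that 1 control array carried most of the difference.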

How the data were processed

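RNA from 4 transfections of HuCCT1 cells was labelled with 1 dye and hybridized to 1 Agilent array per transfection. Spot intensities from Feature Extraction were deposited by the authors (version 10.7 per the labels, 10.7.3.1 in the file header, which names the build hg19), background-subtracted by that software. A second file deposited by the authors holds log2 values per probe with a 75th percentile shift and served as an alternative, as each column matched its array's scanner values up to a constant. The study's methods call differences at 2-fold.

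Here log2 processed signals of the 43118 non-control spots were shifted to the array's 75th percentile (a signal of 1719 to 2689), 289 to 329 outlier-flagged spots per array were left out and spots of a probe averaged. No spot was saturated. A probe was detected when over 0.5 of its spots were well above background (21811 to 24119 probes per array). Accessions named 25422 probes through a RefSeq table (GRCh38.p14), and names printed in the study's gene lists brought this to 25437. With 1 array per condition no test was made, and precision is limited by the number of arrays. Python (3.11.15), numpy (2.4.6) and pandas (2.3.3) were used, and R (4.3.3) with limma (3.58.1) for normexp (offset 50). The calculation was tested on simulated data.

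The text names GRB2, IL1B, MMP9, the 12 named probes in each direction with the largest gap, up to 4 members of each list with the largest gap (or, where fewer lay on one side, the largest mean difference), the 3 named probes per direction with the largest bound and those beside each limit. A few list members that the rule names are not reported here. Other genes are marked as chosen after their values were seen, as are the overlapping list members given for contrast. The probes, the rule and the lists were chosen with earlier results of these data known. The alternatives were other normalizations, background correction, filters, 1 value per gene, a 3-fold limit and leaving out each array.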

Additional observations from a re-analysis of the deposited data

Results flagged for a closer look

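For 2 of the genes named by rule, the treatments differed from their own negative controls in opposite directions, with 1 array each, so the difference was not tested. Some overlapping list members given for contrast did so too. Among them were MMP1 (-1.90 with siGRB2 and 0.37 with miR-376c), MMP7 (-1.57 and 0.63) and ERBB3 (0.48 and -0.24). CDKN1A, which encodes the cyclin-dependent kinase inhibitor p21, was higher with siGRB2 than with siControl by 1.24 on the log2 scale and lower with miR-376c than with miControl (-0.20), a difference of 1.44 between the contrasts. BCL2L1, which encodes the survival protein BCL-XL, was higher with siGRB2 than with siControl by 1.51 and lower with miR-376c than with miControl (-0.48), a difference of 1.99. On the siControl array CDKN1A was at -4.72 and BCL2L1 at -1.29, below the other 3 arrays in both genes. The part of that array in the difference was not tested.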

How the results depend on the processing

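No mean difference of a named gene whose treated and control values were separated changed sign under the alternatives run. Leaving out an array cannot change the sign for such a gene, so those settings are no support. Rescaling moved the median difference of all probes from 0.06 to 0.01 (quantile normalization) or -0.02 (median shift). These moves are small beside a 1.5-fold gap, so the sign of the leading genes was hardly tested. CDKN1A and BCL2L1, which overlapped, went to -0.23 and -0.25 without siControl. More probes were higher than lower at 1.5-fold without a detection filter, without miR-376c (200 lower, 306 higher) and without miControl (1669 and 2458), the reverse of the reported balance. The counts of separated probes moved with the setting, and the cause was not tested except where the setting itself admits fewer or more probes. Under quantile normalization 63 of the 68 lower and 25 of the 43 higher calls still passed 1.5-fold, and under the median shift 58 and 22 did. Quantile normalization gave 9 and the median shift 8 probes lower at 2-fold. Normexp background correction gave 28 lower and 9 higher probes at 1.5-fold and 1 and 0 at 2-fold, where 27 of the 66 lower and 9 of the 38 higher calls that entered still passed 1.5-fold. Without a detection filter 197 were lower and 234 higher at 1.5-fold, and 42 and 86 at 2-fold. With probes above the median of all probes on each array, 35 and 20 remained at 1.5-fold and 2 and 0 at 2-fold. With 1 value per gene, 1856 genes were lower and 2739 higher on one side, 43 and 25 at 1.5-fold, and 2 higher at 2-fold. At 3-fold 0 were lower and 3 higher. Leaving out 1 array asks for fewer differences and raised the counts. On one side 4845 to 7042 probes were then lower and 6386 to 10781 higher, at 1.5-fold 200 to 1669 and 215 to 2458, and at 2-fold 18 to 280 and 27 to 449, the highest without miControl in each case. Without siControl 297 were lower and 218 higher at 1.5-fold.

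Of all genes, 16.5% were lower and 18.1% higher under quantile normalization, 14.8% and 16.4% under the median shift, and 31.7% and 34.4% without siControl. Among the gene lists, quantile normalization gave 1 interferon gene lower, 1 p53 gene lower and 2 higher, 1 glycolysis gene higher, 0 squamous genes higher and 2 epithelial or mesenchymal genes higher. The median shift gave 1 ERBB gene higher, 5 ERK-induced genes lower, 0 IL-1 genes higher, 1 proteolysis gene higher, 0 cell cycle genes lower and 4 higher, 1 lipid gene lower and 2 higher, 1 p53 gene lower and 2 higher, 1 glycolysis gene lower and 1 higher, 2 epithelial or mesenchymal genes higher and 2 microRNA genes lower. Without siControl the lower and higher genes were 15 and 5 (ERBB), 11 and 4 (ERK-induced), 11 and 6 (IL-1), 11 and 1 (proteolysis), 6 and 9 (interferon), 2 and 16 (cell cycle), 4 and 16 (lipid), 2 and 14 (ATF4), 4 and 3 (p53), 2 and 8 (glycolysis), 7 and 1 (squamous), 7 and 5 (epithelial and mesenchymal) and 6 and 6 (microRNA). Of the recomputed mean differences of the genes named, 109 moved by more than the scanner software's error of the difference and 864 did not. With the mean of all detected probes of a gene, GPC3 moved to -0.55, CXCL1 to -0.52, LAMA4 to -0.32 and GPC6 to 0.87. No paired test was made, as each treatment and its own control had 1 array, and the shared number of the labels marks 1 array of each condition. Differences from a treatment's own control are given above for some genes as values only.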
